A study of Mus musculus with 7 samples.

Results

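Of 10756 MyoD peaks called in 2-day mouse myotubes, 1005 had a summit more than 50 kb from every gene locus of the accompanying expression table, counting chromosomes 1 to 19 and every locus of the table, whether or not its expression could be tested. These far peaks made up 9.34% of the list (95% exact binomial interval 8.80 to 9.91%), and 9.46% of the 10620 peaks on those chromosomes. The expression table set the distance, so a transcript it does not list can still lie close to a far peak. The choice used position only. Heights, tag counts and expression values played no part in it.

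MyoD is a basic helix-loop-helix transcription factor that pairs with E proteins and binds E-box motifs, and it drives satellite cell descendants into skeletal muscle differentiation. Many of its sites lie outside promoters, where enhancers can act on genes across long stretches of DNA, and some neighbourhoods that are poor in genes surround developmental regulators whose enhancers are known to be scattered far from the coding sequence. The gene nearest to a distant site is therefore not necessarily the gene it acts on.

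The cells were primary mouse myoblasts grown from sorted satellite cells of mice aged 4 to 6 weeks, and myotubes were made by keeping confluent myoblasts for 48 hours in medium with 5% horse serum. The peaks came from 1 MyoD chromatin immunoprecipitation (ChIP) sample of such myotubes, which its label describes as taken from an earlier sample, and the antibody used for MyoD was not given in the sources used here. Expression came from 1 polyA RNA sample of myoblasts in growth medium and 1 of myotubes, both carrying an empty retroviral vector, whereas the labels name no vector for the MyoD sample. Each group held 1 sample, so no spread between cultures could be measured, and every interval below covers counting error only. In the authors' deposited table, each of 6 myotube markers examined (Myh3, Ckm, Myog, Tnnc2, Acta1 and Tmem8c) was called higher in myotubes, and their summed level went from 1508 to 26299 FPKM (fragments per kilobase, a level per transcript length and library size). In the same authors' deposited table, the 4 myoblast and satellite cell markers summed to 1077 FPKM in myoblasts and 447 in myotubes, and Pax7 and Myf5 were called lower. The other members, Myod1 (895 to 293 FPKM, most of the sum) and Cdh15 (78.0 to 132 FPKM), were not called in the authors' deposited table. The summed markers of other cell types were low in the authors' deposited table and lower in myotubes, from 7.84 to 1.47 FPKM for fibroblasts, 13.9 to 4.59 for adipocytes, 4.69 to 0.289 for endothelium, 12.04 to 2.83 for immune cells and 2.06 to 0.605 for Schwann cells and neurons. The authors' deposited table marks Thy1, Lpl, Pecam1, Cd68 and Cd14 as lower, none of these markers as higher, and Dpt, Plin1 and Emr1 are listed there at 0 in both samples. The 4 smooth muscle and pericyte markers went from a sum of 302 to 2034 FPKM in the authors' deposited table, with Acta2 called higher, Rgs5 called lower and the other two not called. In such bulk samples, fewer cells of a type and less RNA per cell cannot be told apart.

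MyoD binding thinned out with distance from genes. The zone more than 50 kb from any locus covered 640.4 Mb, which was 26.6% of the span of loci on chromosomes 1 to 19, and it held 1.57 far peaks per Mb (95% exact Poisson interval 1.47 to 1.67). The rest of the span held 5.43 peaks per Mb (5.32 to 5.53). The far zone was thus 3.46-fold less dense (3.24 to 3.69), and its density was the lower of the pair on 19 of 19 chromosomes.

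The decline went on inside the far zone. There were 490 peaks at 50 to 100 kb from a locus, a density of 2.21 per Mb (2.02 to 2.42), and 355 at 100 to 200 kb, a density of 1.73 per Mb (1.55 to 1.92). A further 152 peaks lay at 200 to 500 kb, at 0.896 per Mb (0.759 to 1.05), and 8 lay beyond 500 kb in 43.8 Mb, at 0.183 per Mb (0.0788 to 0.360). Each interval lay below that of the preceding distance class. Inside loci the density was 6.45 per Mb, so the 50 to 100 kb class was already 2.92-fold less dense (2.66 to 3.21) and the class beyond 500 kb was 35.3-fold less dense (17.9 to 81.8). The stretch of each class that short reads could map was not known, and its part in the gradient was not tested.

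**Figure D1:**
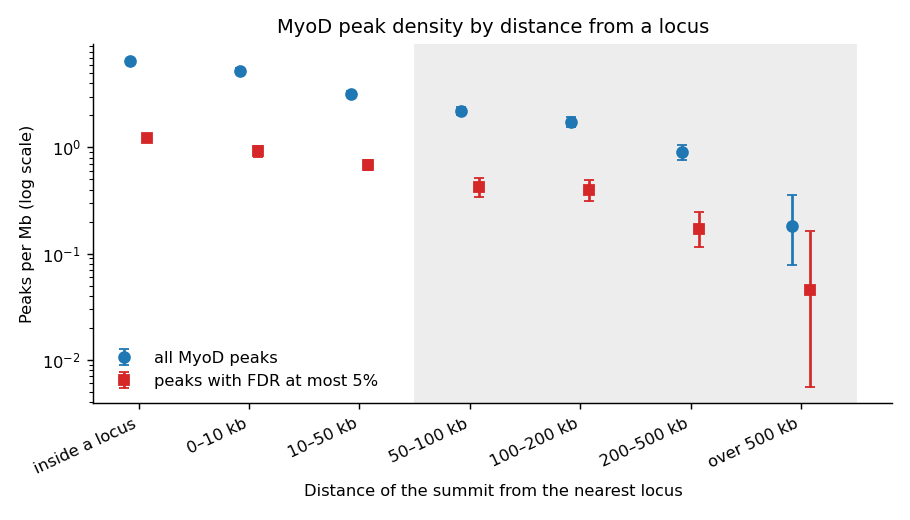
Density of MyoD peaks per Mb (log scale) by distance of the summit from the nearest locus, for all peaks and for peaks with an estimated false discovery rate of at most 5%. Points are densities, bars are 95% exact Poisson intervals and the shaded classes are the far peaks. The density of all peaks falls from 6.45 per Mb inside loci to 0.183 per Mb beyond 500 kb, and the peaks of at most 5% false discovery rate fall from 1.24 to 0.0456 per Mb.

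The median far peak lay 103 kb from its nearest locus (96.6 to 107 kb), with quartiles at 68.9 and 163 kb. Of the 1005, 515 (51.2%) were more than 100 kb away and 160 (15.9%) more than 200 kb. The closest summits to the limit were 50047 bp from Erbb2ip, 50088 bp from Cobl and 50216 bp from a 7SK copy on the far side, and 49783 bp from Prkar2b and 49645 bp from Gm12689 on the near side. The 5 summits closest to the limit on the far side had fold enrichments of 10.5 to 30.6, and the 5 on the near side 9.47 to 14.5.

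The farthest peak of all lay on chr12:44073854-44074041 (mm9), 691 kb from the transcript AC154353.1, with 14 tags and a fold enrichment of 7.33. The next, chr10:16161542-16161767, was 675 kb from a U6 copy and had 7 tags at 24.98-fold. The nearest tested gene to that site, 1281 kb away, was Cited2, a transcriptional coregulator that binds CBP and p300. Cited2 fell from 216 to 52.3 FPKM in the authors' deposited table. The third, chr3:147370183-147370806, lay 647 kb from a SNORA17 copy with 15 tags at 14.97-fold. The fourth, chr13:83051362-83051661, lay 592 kb from Mef2c, and the fifth, chr1:195882804-195883341, lay 547 kb from Mir205 and 4631405K08Rik with 14 tags at 29.0-fold. The 5 held 7 to 15 tags, and their estimated false discovery rates ran from 6.63 to 20.3%.

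Far peaks had slightly fewer tags and slightly higher fold enrichment than the rest. A tag is a mapped read, and fold enrichment is the ratio of tags to the local background, and both are the authors' values from their peak caller, as is the false discovery rate. The median far peak held 13 tags (95% order-statistic interval 12 to 13) against 14 (14 to 14) in all other peaks on the same chromosomes, and spanned 393 bp (382 to 410) against 432 (426 to 438). Median fold enrichment was 16.8 (16.3 to 17.6) against 14.99 (14.99 to 15.23). A fold of at least 20 was reached by 34.4% of far peaks (31.5 to 37.5) and 25.9% of the others (25.1 to 26.8). At least 23 tags were found in 19.1% (16.7 to 21.7) against 24.0% (23.1 to 24.8).

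The count behind any 1 peak was low. Far peaks held 7 to 83 tags, and a count of 13 has a 95% exact Poisson interval of 6.92 to 22.2. The share with an estimated false discovery rate of at most 5% was 20.4% of far peaks (205; 18.0 to 23.02) and 19.2% of the others (18.4 to 20.0), and the intervals overlap. Median fold was higher in far peaks on 17 of 19 chromosomes and lower on 14 and 18, whereas median tags were lower on 11, equal on 5 and higher on 3.

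The offset in fold was seen at matched tag counts. Among peaks of 7 to 9 tags the median fold was 19.5 in 335 far peaks (18.3 to 20.0) and 17.6 in the others (17.1 to 18.0). At 10 to 13 tags it was 16.7 (15 to 17.8) against 15.4 (14.99 to 15.89), and at 14 to 22 tags 15.5 (14.2 to 16.4) against 13.8 (13.5 to 13.99). At 23 or more it was 13.97 (12.5 to 15.4) against 12.9 (12.5 to 13.2). The direction was the same in all 4 classes, and the intervals overlapped at 10 to 13 and at 23 or more tags. Peaks 10 to 50 kb from a locus, which are not far peaks, had a median fold of 15.99 (15.6 to 16.8), between those inside loci (14.99) and those at 50 to 100 kb (16.8), so the offset did not begin at the 50 kb limit.

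**Figure D2:**
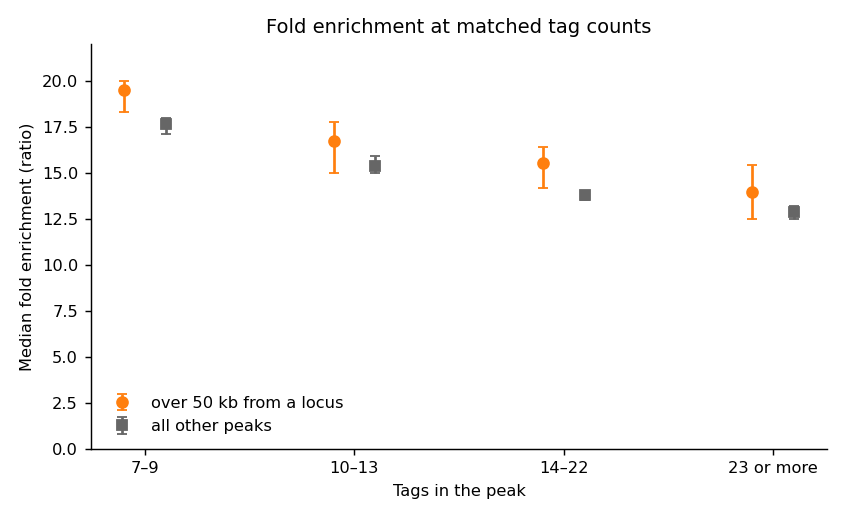
Median fold enrichment (ratio to local background) of peaks over 50 kb from a locus and of all other peaks, by number of tags in the peak. Bars are 95% order-statistic intervals. The far peaks' median is the higher in each of the 4 tag classes, from 19.5 against 17.6 at 7 to 9 tags to 13.97 against 12.9 at 23 or more.

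Ranked by fold, far peaks took 4 of the first 10 places of the list on these chromosomes and 15 of the first 100 (15%; 8.65 to 23.5). Ranked by tags they took 0 of the first 10, which allows a share of up to 30.8% by the exact interval, and 6 of the first 100 (2.23 to 12.6%). Among the first 1000 places they held 13.8% by fold (11.7 to 16.1) and 6.60% by tags (5.14 to 8.32). The far peaks were thus more frequent at the top of the list by ratio than by tags. A peak elsewhere held 707 tags, and no far peak had an estimated false discovery rate of at most 1%, a level that 1 peak reached in all.

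The far peak of highest fold, chr11:7271960-7272410, reached 87.2-fold with 22 tags, 81.7 kb from the predicted transcript Gm11986. Its nearest tested gene, 158 kb away, was Igfbp3, a secreted carrier of insulin-like growth factors, which fell from 197 to 55.5 FPKM in the authors' deposited table. The next ones were chr1:41968520-41968881, 318 kb from Gm9915, and chr3:148359537-148359811, 119 kb from Lphn2, both at 77.0-fold with 23 and 21 tags. Lphn2 encodes latrophilin 2, an adhesion receptor, and it fell from 10.7 to 2.17 FPKM in the authors' deposited table. The tested gene nearest to the chr1 site, 939 kb away, was Mrps9, a mitochondrial ribosomal protein gene. Mrps9 was not called, at 52.0 and 30.4 FPKM in the authors' deposited table. A site at chr17:16114412-16114925 reached 72.0-fold with 26 tags, 140 kb from a U6 copy. Its nearest tested gene Rgmb, a co-receptor of bone morphogenetic proteins 151 kb away, was not called at 15.3 and 18.5 FPKM in the authors' deposited table. The other 6 of the 10 highest held 13 to 20 tags and reached 51.3 to 61.6-fold. Their nearest tested genes included Rnf144a at 509 kb, Jarid2, a partner of Polycomb complexes, at 477 kb, and Tns3, a focal adhesion protein, at 579 kb. Pam, an enzyme of peptide amidation, lay 73.9 kb from its site, at 127 and 29.2 FPKM in the authors' deposited table. Each of these was called lower there, as were 1110002B05Rik and Zfp516. Gm3531, at the same locus as Pam, was not called. Of all tested genes, 17.3% were called lower.

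The far peaks with the most tags were other sites, as no peak was among the 10 highest of both rankings. The largest held 83 tags at 15.3-fold on chr18:14489107-14490613, 91.8 kb from Gm5160. The second, chr17:10217983-10219027, held 68 tags and lay 181 kb from Qk, an RNA-binding splicing regulator that was not called at 96.5 and 98.9 FPKM in the authors' deposited table. Peaks of 66 tags lay 84.5 kb from Bcl6 (chr16:24073121-24074250), 55.1 kb from Sik1 (chr17:31925039-31926609) and 142 kb from Irf2bp2 (chr8:129259039-129260325). The Bcl6 site combined its tags with 30.7-fold enrichment, and its p score of 325 was the highest of all far peaks, with an estimated false discovery rate of 8.11%. Bcl6 encodes a zinc finger repressor and was not called at 13.5 and 25.8 FPKM in the authors' deposited table. Sik1, a salt-inducible kinase, was not called either, at 30.5 and 68.9 FPKM in the authors' deposited table. The remaining 5 of the 10 held 55 to 64 tags, and their neighbours included Rreb1, Eya4 and Runx1.

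Far peaks stood more often alone than other peaks. Another MyoD peak lay within 10 kb of 22.4% of them (225; 19.9 to 25.1) against 30.3% of the rest (29.4 to 31.3). The nearest other peak was a median of 51.0 kb away (44.96 to 57.6) against 24.7 kb (23.6 to 25.5), and 33.0% of far peaks had none within 100 kb against 18.2% of the rest. The density of the zone was also lower, and its part in the wider spacing was not tested. Linking far peaks within 10 kb of each other gave 887 groups, of which 785 were lone peaks, 91 were pairs, 7 were triplets, 3 held 4 and 1 held 5. The group of 5 spread over 13.2 kb of chromosome 5 nearest to Lrpap1, which encodes a chaperone of lipoprotein receptors, and its peaks had folds of 17.1 to 26.98 and 90 tags together. Lrpap1 was listed at 44.6 FPKM in myoblasts and 85.7 FPKM in myotubes in the authors' deposited table. A group of 4 spread over 15.1 kb on the Runx1 side of its gap with 113 tags, and another over 8.20 kb of chromosome 17 with 104 tags.

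The far peaks were unevenly spread over the gaps between loci. Of 3121 gaps longer than 100 kb, 562 (18.0%) held at least 1 far peak. Of these, 352 held 1, 105 held 2 and 105 held 3 or more, and the 31 gaps with 5 or more held 200 far peaks, 19.9% of the total. Density fell with the length of the gap, from 3.09 per Mb in gaps of 100 to 200 kb (2.68 to 3.56) to 1.21 per Mb in gaps of 500 to 1000 kb (1.07 to 1.38). Longer gaps also hold positions farther from any locus, so this fall overlaps with the decline by distance, and the 2 were not separated. The 7 gaps over 2000 kb held 2 far peaks, 0.103 per Mb (0.0125 to 0.371). The longest gap, 7199 kb on chromosome 7, held none.

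The 8 gaps with the most far peaks were flanked by regulators such as Runx1, Bcl6 and Mef2c, but also by other genes, predicted transcripts and small RNA copies. The gap between Runx1 and Mir802 on chromosome 16 held 13 far peaks in 544 kb, the highest number. Its most tag-rich sites were chr16:92961104-92962131 with 55 tags at 9.73-fold and chr16:93006663-93007506 with 53 tags at 23.6-fold, 136 and 181 kb from Runx1. The 13 folds ran from 6.00 to 23.6 with a median of 9.73, and 2 of the peaks had an estimated false discovery rate of at most 5%. They held 8 to 55 tags. Runx1, a runt domain transcription factor, was not called at 39.5 and 31.0 FPKM in the authors' deposited table.

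The gap between Bcl6 and Lpp, also on chromosome 16, held 11 far peaks in 403 kb, a density of 36.3 per Mb of its far zone, the highest of the 8. The peaks ran from the 66-tag site described above to one of 7 tags, with a median fold of 11.99. Lpp, a LIM protein of focal adhesions, fell from 17.8 to 3.90 FPKM in the authors' deposited table, while Bcl6 was not called. On chromosome 13, 9 far peaks lay between Gm16767 and Diras2, led by chr13:52270923-52271674 with 37 tags at 27.1-fold. On chromosome 8, 9 lay between a 7SK copy and Zfp703, led by chr8:27619506-27620371 with 40 tags at 15.6-fold and a false discovery rate of 2.15%. Zfp703, a zinc finger corepressor, was not called at 24.7 and 23.1 FPKM in the authors' deposited table.

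The other gaps held 8 far peaks each. That between Irf2bp2 and Tomm20 on chromosome 8 was the shortest, at 341 kb, and 4 of its 8 peaks had a false discovery rate of at most 5%, the most among the 8 gaps. Neither Irf2bp2 (18.4 and 7.44 FPKM) nor Tomm20 (94.1 and 72.3 FPKM) was called in the authors' deposited table. In the gap between 1500009L16Rik and Nuak1 on chromosome 10, folds ran up to 21.0 and no peak was at most 5%. Nuak1, an AMPK-related kinase, rose from 21.8 to 70.8 FPKM in the authors' deposited table. The gap before Atp2b1, a plasma membrane calcium pump, was 1170 kb long and its peaks were small, with 7 to 14 tags at a median of 20.0-fold. Atp2b1 was not called at 30.6 and 18.5 FPKM in the authors' deposited table.

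The gap before Mef2c was the longest of the 8, at 1453 kb, and its 8 far peaks were all on the half-gap nearer to Mef2c. Mef2c encodes a MADS box factor that acts with MyoD family proteins on muscle genes, and it rose from 15.4 to 221 FPKM in the authors' deposited table. The closest far peak, chr13:83589892-83590275, lay 53.1 kb away with 11 tags at 44.4-fold. The others lay at 105, 173, 296, 392, 392, 427 and 592 kb, with 7 to 23 tags and folds of 9.79 to 20.5. The site at 427 kb, chr13:83215685-83215972, had the most tags and was the only one of the 8 with a false discovery rate of at most 5% (3.81%). Flanking genes of 4 of the 8 gaps could be matched in the RefSeq annotation of another build (GRCm38.p6), where the Runx1, Bcl6, Irf2bp2 and Nuak1 gaps held 5, 5, 5 and 9 long non-coding RNA genes and 0 protein-coding genes.

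**Figure D3:**
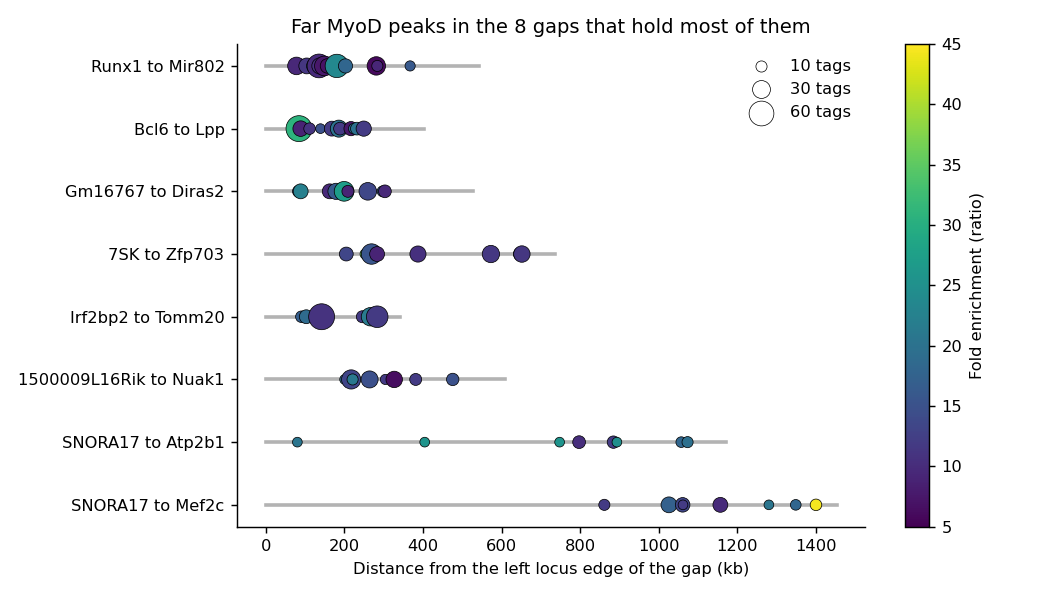
Far MyoD peaks in the 8 gaps with the highest numbers of far peaks, placed by distance in kb from the left locus edge of each gap, which is drawn as a grey line. Point area grows with the tags of the peak and colour gives fold enrichment (ratio). In the Runx1 gap 10 of the 13 peaks lie nearer to Runx1 than to Mir802, and the 8 of the Mef2c gap lie in the part nearer to Mef2c, with the 44.4-fold peak closest to it.

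Far binding was denser beside loci that rose with differentiation. Every position of the far zone was given to its nearest locus, and loci were sorted by the authors' call between myoblasts and myotubes. Next to loci called higher there were 69 far peaks in 14.5 Mb, 4.77 per Mb (3.71 to 6.04). Next to loci called lower there were 110 at 2.60 per Mb (2.14 to 3.14), next to tested loci without a call 381 at 2.38 per Mb (2.15 to 2.63), and next to untested loci 445 at 1.05 per Mb (0.955 to 1.15). The density beside loci called higher was 2.00 times that beside tested loci without a call (1.53 to 2.59) and 1.83 times that beside loci called lower (1.34 to 2.499). For loci called lower the ratio to tested loci without a call was 1.09 (0.875 to 1.35), an interval that includes 1.

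The ratio of called higher to not called was 2.07 at 50 to 100 kb (1.41 to 2.97), 1.77 at 100 to 200 kb (1.03 to 2.86) and 2.66 beyond 200 kb (1.36 to 4.88). Closer in, it was 2.07 within 10 kb of a locus (1.75 to 2.43) and 1.66 at 10 to 50 kb (1.32 to 2.06), so the higher density was also found among peaks that are not far. At 100 to 200 kb the ratio of called higher to called lower was 1.26 (0.703 to 2.17), which includes 1. Loci with at least 1 FPKM in either sample of the authors' deposited table had 2.59 far peaks per Mb, against 1.13 beside loci listed above 0 but under 1, a ratio of 2.30 (1.85 to 2.89). Loci listed at 0 in both samples had 1.03 per Mb, but copies of U6, U1, 7SK and 5S_rRNA, whose RNAs every cell uses, are among those in the authors' deposited table, so a 0 there is not a measure of low expression. Of the gap sides, 24.4% of 164 beside loci called higher held a far peak (18.0 to 31.7), against 15.4% of 474 beside loci called lower (12.3 to 18.97) and 14.1% of 1707 without a call (12.4 to 15.8). Far peaks of 1 locus share a neighbourhood and are not independent, and without the side that held most, the 8 peaks of Mef2c, the ratio was 1.86. The fold enrichment of far peaks did not separate these classes, with medians of 17.04 (13.99 to 19.28) beside loci called higher and 16.6 (15.4 to 18.0) beside loci called lower.

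**Figure D4:**
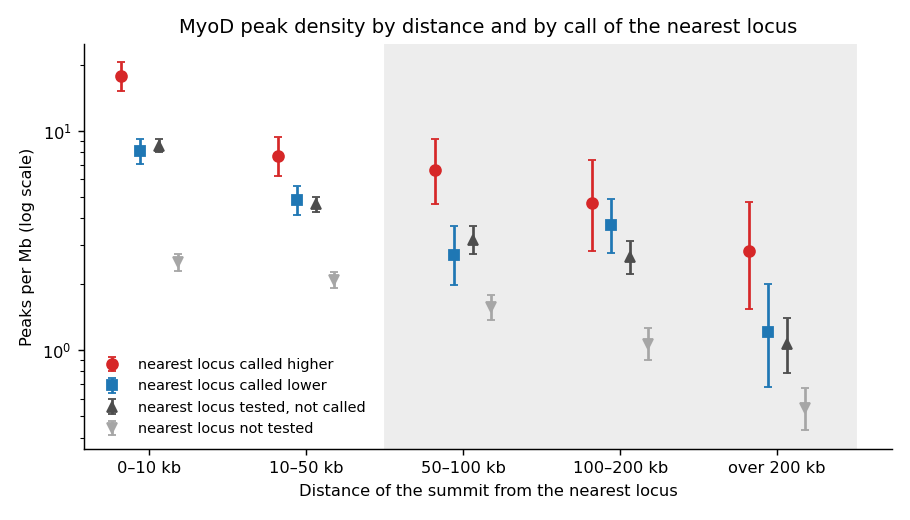
Density of MyoD peaks per Mb (log scale) by distance from the nearest locus and by the authors' call of that locus between myoblasts and 2-day myotubes. Points are densities, bars are 95% exact Poisson intervals and the shaded bands are the far peaks. Loci called higher have the highest density in each band, with 6.59 per Mb at 50 to 100 kb against 2.73 for loci called lower and 3.18 for tested loci without a call, and their interval overlaps that of loci called lower at 100 to 200 kb and beyond 200 kb, and that of tested loci without a call at 100 to 200 kb.

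When each gene was counted once, however many far peaks it had, the tested genes nearest to far peaks were called at shares near those of all tested genes that border the far zone. The far peaks had 690 distinct nearest tested genes, a median of 141 kb away, of which 50 were called higher (7.25%; 5.43 to 9.44) and 143 lower (20.7%; 17.8 to 23.9). A locus was shared with another tested gene by 181 of the 690, so 1 far peak can count several genes. The intervals treat these genes as independent. Of all 15966 tested genes, 6.52% were called higher and 17.3% lower, and of the 3149 tested genes that border some part of the far zone, 5.87% and 19.5%. The median log2 ratio of myotube to myoblast FPKM, with 1 added to each, was -0.45 over 665 of these genes (-0.55 to -0.38), -0.37 over all tested genes and -0.46 over the tested genes that border the far zone. With the authors' log2 fold changes centred on their median of -0.41, the split of calls moved from 25.9% higher to 43.0% higher among the 690, and from 27.3 to 49.3% among all tested genes. The 690 genes then had 10.3% called higher and 13.6% lower (11.2 to 16.4), against 8.61 and 12.5% of those that border the far zone and 9.94 and 10.2% of all tested genes. The share called lower thus lay above that of all tested genes under both scalings, and its interval included that of the genes that border the far zone. Of the 56 genes with 4 or more far peaks, 6 were called higher (10.7%; 4.03 to 21.9) and 8 lower (14.3%; 6.38 to 26.2).

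The 10 largest called rises among these genes included muscle genes such as Vgll2, Mef2c, Jph1 and Trdn. Trp63, a p53 family transcription factor, rose from 0.624 to 27.1 FPKM in the authors' deposited table, and 3 far peaks of 7 to 9 tags lay 80.6, 152 and 179 kb from it. Those at 152 and 179 kb were closer to Tprg. Vgll2 encodes a vestigial-like partner of TEAD factors, and went up from 0.283 to 12.3 FPKM in the authors' deposited table and had 1 far peak, of 16 tags at 9.60-fold, 52.2 kb away. That peak had an estimated false discovery rate of 23.3%. Tecrl, a trans-2,3-enoyl-CoA reductase-like gene, rose from 0.675 to 20.9 FPKM in the authors' deposited table. Its far peaks lay 50.2 and 223 kb away, at 30.6 and 17.0-fold. Cobl, an actin nucleator, rose from 26.1 to 393 FPKM in the authors' deposited table, with a far peak at chr11:12414972-12415269.

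Jph1 and Trdn belong to the calcium release apparatus of muscle. Jph1, which encodes junctophilin 1 of the triad junction, rose from 4.37 to 41.0 FPKM in the authors' deposited table, and its far peak at chr1:17406958-17407262 held 13 tags at 35.9-fold, 319 kb away. That peak was closer to a SNORA17 copy. Trdn, which encodes the junctional protein triadin, rose from 5.57 to 40.5 FPKM in the authors' deposited table, with a far peak of 18 tags at 27.4-fold 56.2 kb away (chr10:32746959-32747155). Tmem182, a muscle membrane protein gene, rose from 6.52 to 76.2 FPKM in the authors' deposited table and had far peaks at 74.8 and 181 kb, at 20.4 and 27.7-fold. Vldlr, a lipoprotein receptor, rose from 3.28 to 26.2 FPKM in the authors' deposited table, with a peak of 7 tags 139 kb away. Hist1h2al rose from 3.38 to 59.7 FPKM in the authors' deposited table, and its 2 far peaks were closer to the untested locus S1pr3. Far peaks of the 10 rises, Mef2c included, held 7 to 23 tags, so none was among the 10 far peaks with the most tags. Their estimated false discovery rates ran from 3.11 to 23.6%.

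The 10 largest called falls included Ccnd1 and Mki67, genes of the cell cycle. Ccnd1, which encodes cyclin D1 of the G1 phase, fell from 882 to 102 FPKM in the authors' deposited table, and 3 far peaks lay 106, 117 and 133 kb from it with 26, 7 and 7 tags. Mki67, the proliferation marker, fell from 23.3 to 2.56 FPKM in the authors' deposited table, with far peaks 227 and 307 kb away at 29.4 and 18.2-fold. Hmga2, a chromatin protein of growing progenitors, fell from 112 to 14.3 FPKM in the authors' deposited table, and its far peak (chr10:119968422-119969492) held 32 tags 55.7 kb away. Cxcr7, a chemokine receptor, fell from 80.4 to 9.67 FPKM in the authors' deposited table and had 3 far peaks at 72.4 to 171 kb. Lef1, a Wnt pathway transcription factor, fell from 10.1 to 1.35 FPKM in the authors' deposited table, with a peak of 9 tags 91.2 kb away that was closer to AC114668.1. Slc8a1, the sodium-calcium exchanger, fell from 52.3 to 2.76 FPKM in the authors' deposited table, with a peak of 7 tags at 25.7-fold 116 kb away. Arl4c, a small GTPase of the ARF family, fell from 56.8 to 7.35 FPKM in the authors' deposited table, and 1 of its 2 far peaks held 33 tags. Gm11816, 2310002L13Rik and Tcerg1l completed the 10, each with 1 far peak of 8 to 12 tags. Those of Gm11816 and Tcerg1l were closer to U6 copies. Estimated false discovery rates of the far peaks of the 10 falls ran from 3.49 to 23.6%.

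**Figure D5:**
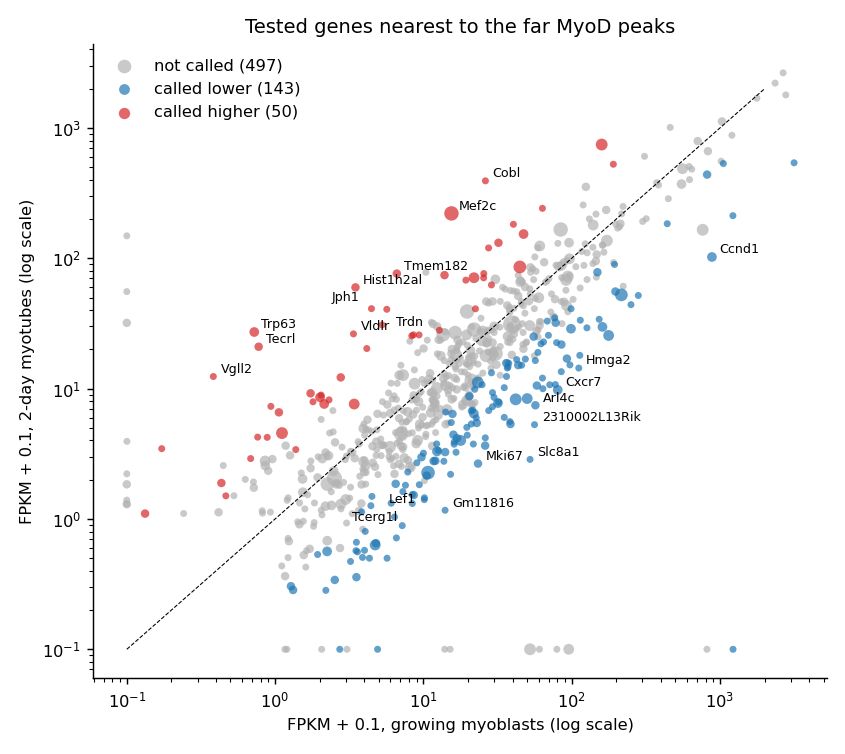
FPKM plus 0.1 in growing myoblasts and in 2-day myotubes (log scales) of the 690 tested genes nearest to far MyoD peaks, from the authors' deposited table. Colour gives the authors' call (50 higher, 143 lower, 497 not called), point area grows with the number of far peaks, the dashed line marks equal levels and the 10 largest rises and falls are named. Mef2c, with 8 far peaks, goes from 15.4 to 221 FPKM and Ccnd1, with 3, from 882 to 102.

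Of 41 muscle structure genes in the table, such as those of actins, myosins, troponins and titin, the authors' deposited table marks 38 as higher in myotubes, 3 bordered the far zone and 0 were the nearest locus of a far peak. Few could have been, as only 3 faced a long enough gap. Of 40 entries for myogenic regulators, 18 bordered the far zone and 9 were nearest to some far peak, which came to 27 far peaks (2.69% of all; 1.78 to 3.89). Over all 34948 entries on these chromosomes, 6694 bordered the far zone and 871 (13.01% of those) were nearest to a far peak.

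Among the nearest tested genes were 9 entries for myogenic regulators, and the authors' deposited table marks 4 as higher and 2 as lower. Over all 36 tested entries of that list, 9 were called higher and 12 lower, and over all tested genes the shares were 6.52 and 17.3%. Counted by nearest tested gene instead of nearest locus, Runx1 had 13 far peaks and Mef2c 8. Some of those of Runx1 were closer to the untested Mir802. Id2, an inhibitor that sequesters E proteins away from MyoD, had 4 at 173 to 351 kb, among them chr12:26123405-26124494 with 35 tags at 35.98-fold, and fell from 177 to 25.5 FPKM in the authors' deposited table. The 35-tag site and the site at 351 kb were closer to an untested 5S_rRNA copy. Eya1, a transcriptional coactivator with phosphatase activity, had 1 far peak, which was closer to a 7SK copy. Eya1 was not called at 3.81 and 2.32 FPKM in the authors' deposited table. Zeb1, an E-box repressor, had 2 far peaks 60.3 and 63.5 kb away and stood in the authors' deposited table under 2 identifiers at loci with shared ends, of which 1 rose from 2.67 to 12.1 FPKM and the other was not called.

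Of 245 entries for families of developmental factors, 71 bordered the far zone and 16 were the nearest locus of a far peak. Nr2f2, which encodes the nuclear receptor COUP-TFII, was the nearest tested gene of 8 far peaks, at 118 to 637 kb. Most of these were closer to an untested locus, among them the strongest, chr7:77788785-77789375 with 27 tags at 33.1-fold. Nr2f2 was not called at 6.99 and 4.39 FPKM in the authors' deposited table. Sox11, an SRY-related factor, was the nearest tested gene of 7, from 86.2 to 553 kb with folds of 12.6 to 35.98. Most of its peaks were also closer to an untested locus, and Sox11 was not called at 16.3 and 26.8 FPKM in the authors' deposited table. Foxp1, a forkhead factor, fell from 42.5 to 16.6 FPKM in the authors' deposited table. It was the nearest tested gene of 1 far peak of 9 tags at 35.9-fold, 293 kb away, which was closer to AC158665.1. In these families 18 entries were nearest tested genes, and the authors' deposited table marks 2 as higher and 2 as lower, against 7 and 27 of all 111 tested entries of the list.

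Of 9 secreted signals among the nearest tested genes, 5 were called lower and 1 higher, against 25 lower and 16 higher of 71 tested members of the list in the authors' deposited table and 17.3% lower and 6.52% higher of all tested genes. Efna5 and Efnb2, ligands of Eph receptors, had 4 and 2 far peaks and fell from 4.63 to 0.531 and from 58.1 to 10.5 FPKM in the authors' deposited table. The Efna5 peaks at 220 and 246 kb were closer to a SNORA9 copy. Gdf6, a bone morphogenetic protein family ligand, rose from 0.961 to 6.48 FPKM in the authors' deposited table, and its far peak chr4:9962178-9962833 held 23 tags at 51.1-fold. The far peaks of Gdf6 were closer to Gm11835. Igfbp5, an insulin-like growth factor binding protein of muscle, was the nearest tested gene of 5 far peaks, of 12 to 44 tags, all closer to Tnp1. Igfbp5 was not called at 173 and 136 FPKM in the authors' deposited table. With 9 genes, the counts allow no statement on the list as a whole.

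Adhesion and synapse genes bordered the far zone in 64 of 134 entries, and 9 were the nearest locus of a far peak. Ncam1, the neural cell adhesion molecule of myoblasts and motor endplates, rose from 159 to 746 FPKM in the authors' deposited table. It was the nearest tested gene of 5 far peaks, 86.0 to 160 kb away with 20 to 38 tags. All were closer to a U6 copy, and the outermost, chr9:49767007-49767316, reached 48.0-fold. Robo1, a receptor of Slit guidance cues, fell from 26.0 to 3.55 FPKM in the authors' deposited table. It was the nearest tested gene of 2 far peaks of 8 tags, 651 and 811 kb away, which were closer to a SNORA71 copy. No chemoreceptor locus was nearest to a far peak, although 35 of the 1760 bordered the far zone. Predicted or clone-named transcripts were beside 327 far peaks (32.5%; 29.7 to 35.5) and made up 33.3% of the entries that border the far zone. MicroRNA loci were beside 29 far peaks (2.89%; 1.94 to 4.12) and made up 2.55% of those entries.

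Chromosomes differed in their share of far peaks. Chromosome 13 had 101 far peaks among 484 (20.9%) and the highest far density, 2.83 per Mb. Chromosome 11 had 19 among 758 (2.51%), where the far zone took up 12.9% of the span against 30.5% on chromosome 13. Chromosome 10 followed chromosome 13 with 94 far peaks at 2.52 per Mb. Chromosome 14 had the lowest far density, 0.566 per Mb with 21 far peaks, and was also the sparsest outside the far zone, at 1.73 per Mb against 4.55 to 7.14 on the others.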

How the data were processed

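Of 7 samples, 1 per group, 3 were used, and the 4 samples of histone ChIP stay out. The authors deposited FPKM, 1 value for a gene in each condition, as a Cuffdiff table with p-values, q-values, log2 fold changes and a test score, in 2 copies with identical contents. Cuffdiff (no version), CASAVA 1.7.0, MACS 1.3.7 and the mm9 build are named in the submitters' processing notes. A gene was called where the authors marked it significant (q at most 0.05). The labels state sequencing in duplicates, but the way these were combined, the normalization and the annotation are not stated in them. Peaks were called from 1 treatment of 8637045 tags (4049890 unique) against 1 control of 9129012 tags (4371189 unique), with a p-value threshold of 1.00e-05, per the file headers. Tags per peak are counts, fold enrichment is a ratio, the false discovery rate is a percent and p scores are the negative log10 of p multiplied by 10, per the file headers.

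The summit is the start plus the offset minus 1, and loci are the intervals of the expression table (25941 distinct on chromosomes 1 to 19). Densities divide peaks by the length of each distance class between the first and last locus of a chromosome. Intervals are exact binomial (Clopper-Pearson), exact Poisson or order-statistic, at 95%. Distances were checked by direct calculation at random positions. Simulated data were used to check densities with their Poisson intervals and the order-statistic interval of a median. Binomial intervals and intervals of density ratios were not checked in this way. No test over peaks was run, since neighbouring peaks are not independent. The differential calls rest on the authors' Cuffdiff test, and p-values measure only what that test modelled, as no separate cultures are labelled. The members, lists and comparisons were chosen with earlier results of these data known, and the density by call, by band and by gap side were added after seeing the data. Named were the 10 far peaks highest by fold and by tags, the 5 farthest, those nearest the limit, the 8 gaps with most far peaks, their neighbouring genes, the 10 largest called rises and falls (larger FPKM at least 10, smaller at least 0.1) and list members that were nearest tested genes. Some list members are counted but not reported here by name. Lrpap1 was named for its cluster, after its values were seen. A symbol can stand for several loci (U6, SNORA17). Peak sequences and E-boxes were not analysed here. Python 3.11.15, numpy 2.4.6, pandas 2.3.3 and scipy 1.17.1 were used.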

Additional observations from a re-analysis of the deposited data

How the results depend on the processing

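Of 96 alternatives, 68 left a value within its 95% interval or, for counts, within 1.5 times, and 28 moved it. With a limit of 25 kb there were 1602 far peaks (15.1% of peaks, 1.89 per Mb), and with 100 kb 515 (4.85%, 1.23 per Mb, 19.8% with another peak within 10 kb). With loci of tested genes only there were 1972 (18.6%), and without loci over 500 kb 1535 (14.5%, 1.86 per Mb). Peaks of at most 5% false discovery rate left 205 far peaks, at 0.320 per Mb, with median fold 24.15, 22 tags, 4.88% with another peak within 10 kb and 9.55% of nearest tested genes called higher. Peaks of at least 20-fold left 346 (12.2%), at 0.540 per Mb, with median fold 25.65, 11 tags, 38.7% at most 5% false discovery rate and 6.36% with another peak within 10 kb. These filters select on the values they move and leave fewer peaks. Centring the log2 fold changes gave 10.3% called higher and 13.6% lower. The density ratio of loci called higher to tested loci without a call was 2.66 beyond 200 kb and 1.65 to 2.26 under the other alternatives, all added after seeing the data. That density ratio stayed above 1 under each alternative. The median log2 ratio of the nearest tested genes stayed negative, at -0.52 with 0.1 added and -0.45 without a filter on low values. The other alternatives gave values of far peaks and their nearest tested genes only. Contrasts of far peaks with other peaks in fold, tags, spacing and density were therefore not checked under them. The share at most 5% false discovery rate was not recomputed under the filter on that rate, and E-box alternatives were not run. With 1 sample a group, leaving out replicates was impossible. No paired analysis was possible because each group held 1 sample. The 7 to 83 tags of a far peak limit its fold and its rank.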

Other observations

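Chromosome X, outside the definition of far peaks used here, held 136 peaks, and adding it gave 1019 far peaks at 1.52 per Mb. The far peaks took up 15865 of the 185604 tags in peaks (8.55%). Across the 19 chromosomes the ratio of far density to density elsewhere ran from 0.173 on chromosome 4 to 0.602 on chromosome 13.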
